A study of Mus musculus with 4 samples.

Results

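Shh, Ptch1, Hhip, Boc, Smo, Sufu, Gli1, Gli2 and Gli3, 9 genes of the Hedgehog pathway, were followed through the cells of the growing mouse incisor. They were taken by symbol from the 32285 genes of the count tables, and all 9 were present. Single-cell RNA-seq had been made from proximal lower incisor tissue of mice at postnatal day 15, as 2 WT and 2 Din-KO libraries, named here WT 1, WT 2, Din-KO 1 and Din-KO 2. Din-KO mice carried a germline tm1b gene-trap allele of Din (4930453N24Rik), in which LacZ reports the activity of the Din promoter, and WT mice carried no such allele. Strain and mice per library are not given in the sources used here, so the p-values below measure the spread between libraries, which may be partly technical. The comparisons ask which cells send the Hedgehog signal, which cells carry the response, how the response varies inside the collagen-positive mesenchyme, and whether these levels differ between genotypes.

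Hedgehog ligands are secreted proteins. They bind the receptor Patched, encoded by Ptch1, with the help of co-receptors such as Boc, and this releases Smoothened (Smo) from repression by Patched. Smo then turns the Gli proteins, held in check by Sufu, into activators of transcription. Gli1, Ptch1 and Hhip are themselves switched on by the pathway in many tissues, so that their RNA is widely used as a readout of the response, and both Ptch1 and Hhip bind the ligand and limit its spread. Gli2 and Gli3 act upstream of that readout, Gli2 mostly as an activator and Gli3 mostly as a repressor. In the mouse incisor, which grows throughout life, Shh is known from the epithelium that forms enamel, and Gli1 is a known marker of mesenchymal stem cells that feed the dental pulp and the odontoblasts.

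All 9 genes are annotated as protein coding in GRCm38 (mm10), the build of the count tables. Shh, the ligand, lies at chr5:28456815-28467256 on the minus strand. The receptors and inhibitors are Ptch1 at chr13:63508328-63573598 (minus), Boc at chr16:44485049-44558897 (minus), Smo at chr6:29735503-29761365 (plus), Hhip at chr8:79965851-80058006 (minus) and Sufu at chr19:46396896-46488804 (plus). The transcription factors are Gli1 at chr10:127329882-127341974 (minus), Gli2 at chr1:118834132-119053619 (minus) and Gli3 at chr13:15463235-15730026 (plus). Promoters from RefSeq (GRCm38.p6) were found for 6 of the 9 genes. The 250 bases before the start were searched on both strands for the Gli motif GACCACCCA and for its core CCACCC, which lies inside the full motif. The full motif was in 0 of the 6 promoters and in 0.225% of 32851 mouse promoters, and the core was in 4 of the 6 (Gli2, Gli3, Smo and Hhip) and in 28.1% of all. The 2 promoters of the secreted or membrane inhibitors whose RNA follows the pathway are shown 5′ to 3′, since Ptch1 and Hhip moved apart in the results, with any core in capitals. The Ptch1 promoter is chr13:63565736-63565985 on the minus strand, before a RefSeq start inside the annotated gene, with 78.4% G and C. The Hhip promoter is chr8:80058009-80058258 on the minus strand, with 76% G and C and its single core beginning 158 bases before the start. The median over all promoters was 52.4% G and C. A match of letters is a description only.
Ptch1: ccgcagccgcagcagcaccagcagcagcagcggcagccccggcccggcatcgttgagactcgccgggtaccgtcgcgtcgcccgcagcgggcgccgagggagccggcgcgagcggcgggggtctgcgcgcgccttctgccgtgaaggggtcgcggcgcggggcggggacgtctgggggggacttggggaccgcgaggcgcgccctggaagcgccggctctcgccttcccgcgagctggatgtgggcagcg
Hhip: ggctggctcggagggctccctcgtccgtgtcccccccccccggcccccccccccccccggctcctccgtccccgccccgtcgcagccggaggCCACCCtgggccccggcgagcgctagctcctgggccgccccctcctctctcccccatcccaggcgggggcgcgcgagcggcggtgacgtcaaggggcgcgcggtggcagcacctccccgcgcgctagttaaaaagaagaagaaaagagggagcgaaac

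The 4 libraries held 20502 barcodes, of which 11310 passed the filters as cells (1272 to 4575 in a library), with median totals of 8016 to 11588 UMIs, the counted RNA molecules, per cell. Any pair of libraries shared at most 4 barcodes among kept cells. Clustering without the Hedgehog genes gave 33 clusters, which were named from marker lists. Of these, 13 were mesenchyme-like and 2 epithelium-like, and 4 clusters with 607 cells stayed unnamed. Mesenchyme-like cells numbered 2652, 846, 3030 and 629 in WT 1, WT 2, Din-KO 1 and Din-KO 2, the order kept for every set of 4 values below. Those with at least 10 UMIs of Col1a1, Col1a2 and Col3a1 together, called collagen-positive mesenchyme here, numbered 2412, 831, 2315 and 599. Their make-up split by replicate number and not by genotype. The numbers are those of the sample titles, and the library names in the labels differ from them, WT-2 and KO-2 for replicate 1 and CD1-WT and CD2-KO for replicate 2. Dental pulp-like cells made up 82.0% and 77.8% of them in the 2 libraries of replicate 1 but 33.1% and 32.1% in those of replicate 2, where dental follicle-like cells were 50.9% and 50.6%. Cells that held RNA of a Y-linked gene, with Xist at 1 UMI or none, made up 0% of the mesenchyme in both WT libraries and 46.3% and 45.6% in the Din-KO libraries, so sex moves with genotype when all cells are compared. Cells with at least 3 UMIs of Xist and none of a Y-linked gene, the cells of females, numbered 2385, 800, 815 and 265, and in the mesenchyme the genotypes were also compared within them. In the other classes sex and genotype were not separated. Din itself was counted in every library, at 36.7, 28.5, 22.1 and 28.1 CPM (UMIs of the gene per 1000000 UMIs of the cell set) in the mesenchyme. It stood at 38.5, 20.5, 17.4 and 13.0 CPM in epithelium-like cells and at 21.3, 16.4, 7.52 and 5.53 CPM in macrophage-like cells. Both Din-KO values lay below both WT values in each of these, by a narrow margin in the mesenchyme. The counted 3′ end need not lie in the altered part of the gene, so these values do not check the labels.

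Shh RNA lay almost entirely in the epithelium. Of 4372 Shh UMIs in kept cells, 4273 (97.7%) lay in the 578 epithelium-like cells, and Shh stood at 653, 106, 290 and 191 CPM there. In collagen-positive mesenchyme it stood at 0.898, 0.489, 0.408 and 0.247 CPM. Every epithelium-like value lay above every mesenchyme value, with a log2 fold change of 9.34 ± 0.42 (SE, edgeR adjusted p = 1.9e-14). Shh was detected in 77.2% (95% exact binomial interval 69.6 to 83.8), 43.0% (34.0 to 52.3), 59.3% (51.7 to 66.6) and 32.6% (24.8 to 41.2) of the epithelium-like cells. With each cell thinned to 2000 UMIs, these shares were 60.8%, 19.8%, 33.3% and 20.7%. Among the 10732 other cells, 67 (0.624%) held a Shh UMI, and the share was 0% to 1.5% in macrophage-like cells and 0.35% to 0.75% in collagen-positive mesenchyme, at median depths of 8933 to 10808 and 8539 to 15407 UMIs. The shares outside the epithelium were thus no higher in mesenchyme than the range in macrophage-like cells, and no expression was read from them. They were not spread evenly, since 1 mesenchyme-like and 1 macrophage-like cell of WT 1 held 6 Shh UMIs each. Intervals cover counting error only.

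The 2 epithelial clusters differed in Shh, and libraries drew on them unequally. The cluster led by Shh, Krt17 and Epcam (122, 32, 120 and 55 cells) had 703, 526, 407 and 442 CPM of Shh. A single cell of Din-KO 2 held 364 of that library's Shh UMIs in this cluster, 45.6% of them, and without the cell of highest Shh in each library the values were 699.8, 387, 384 and 282 CPM. The cluster led by the enamel matrix genes Amelx, Enam and Ambn (23, 89, 57 and 80 cells) had 507, 41.2, 153 and 21.1 CPM. The first cluster spanned 407 to 703 CPM and the second 21.1 to 507 CPM. Amelx RNA alone took 10.8%, 32.9%, 22.8% and 28.5% of all UMIs of the enamel cluster. Shh is a leading gene of the first cluster although it was left out of the clustering, so its difference between the clusters is a description.

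Of the genes that release or carry the ligand, Disp1 was higher in the epithelium, like Shh, and Scube1 in the mesenchyme. Disp1, which releases the lipid-bearing ligand from the sending cell, stood at 17.3 ± 4.07 CPM (SD, n = 4 libraries) in epithelium-like cells and at 8.07 ± 0.863 in mesenchyme (log2 fold change 1.38 ± 0.21, edgeR adjusted p = 4.3e-06). Scube1, a secreted carrier protein of the Scube family, was the reverse, at 1.49 ± 0.852 CPM against 77.7 ± 11.9 (log2 fold change -5.33 ± 0.43, edgeR adjusted p = 1.5e-10). Among the other ligands, Dhh stood at 49.99 and 172 CPM in the 2 libraries with at least 20 glia-like cells, both of them Din-KO. It stood at 4.98 ± 1.53 CPM in endothelium-like cells and at 0.131 ± 0.0917 CPM in mesenchyme (n = 4 each). Dhh is the known ligand of Schwann cells. Ihh had mean levels of at most 0.41 CPM in every class.

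**Figure D1:**
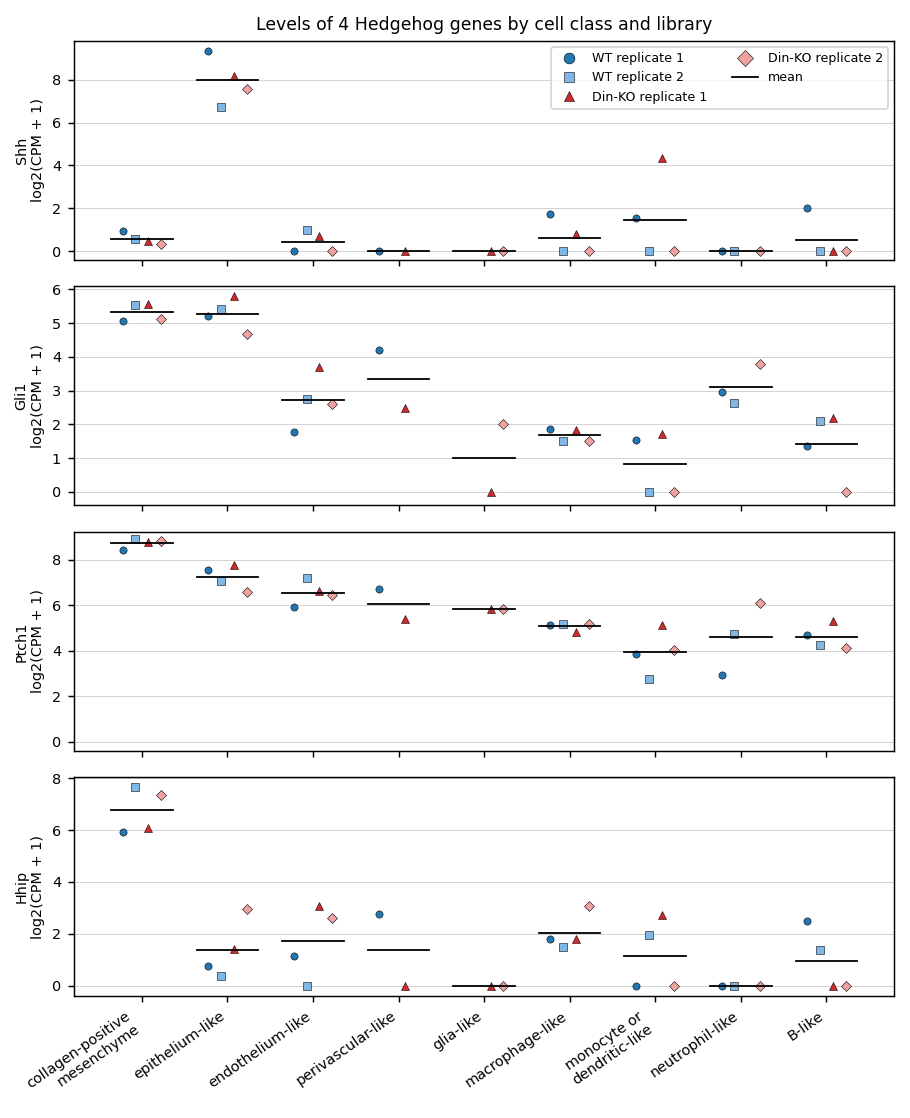
Levels of Shh, Gli1, Ptch1 and Hhip on a log2(CPM + 1) axis in each cell class, with a point for each library of at least 20 cells of that class, coloured by library. Shh stands apart in epithelium-like cells, and Gli1 is high in both epithelium-like cells and collagen-positive mesenchyme. Ptch1 is highest in the mesenchyme, with epithelium-like values that overlap those of endothelium-like cells. Hhip is high only in the mesenchyme among the classes drawn.

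The readout genes did not share one pattern between the epithelium and the mesenchyme. Against collagen-positive mesenchyme, 4 of the 9 genes passed the test in epithelium-like cells, where 39.3% of all genes tested did. Gli1 was alike in range, at 36.01, 41.7, 54.8 and 24.4 CPM in epithelium-like cells and 32.5, 45.1, 46.5 and 34.1 CPM in mesenchyme, with a log2 difference of 0.25 ± 0.21 (SE, edgeR adjusted p = 0.38). The groups overlapped throughout. Ptch1 stood at 185, 132, 215 and 96.0 CPM against 347, 488, 447 and 452 CPM, so that every epithelial value lay below every mesenchymal value, and it was lower by the test (log2 fold change -1.19 ± 0.27, edgeR adjusted p = 0.00066). Hhip was nearly absent from the epithelium, at 0.713, 0.285, 1.67 and 6.72 CPM against 59.6, 200, 67.3 and 162 CPM (log2 fold change -5.33 ± 0.49, edgeR adjusted p = 3e-09). Without Din-KO 2, the library with the most epithelial Hhip, the fold change was -6.41.

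Of the co-receptor, transducers and factors, Sufu was the other gene that passed the test in the epithelium. Sufu, the inhibitor that holds Gli proteins, had 3.92, 5.14, 10.0 and 9.85 CPM in epithelium-like cells and 10.4, 16.9, 13.3 and 15.4 CPM in mesenchyme (log2 fold change -0.65 ± 0.25, edgeR adjusted p = 0.04). That call was lost without WT 1 (adjusted p = 0.13) and without WT 2 (adjusted p = 0.11). Smo, the signal transducer, had 53.8, 49.6, 50.3 and 57.1 CPM against 57.3, 81.5, 63.6 and 75.3 CPM. The ranges did not overlap by a narrow margin, while the fitted log2 difference was -0.09 ± 0.17 (edgeR adjusted p = 0.72). For this pair the fit's scaling lay 0.29 above CPM on the log2 scale, beside the Amelx shares given above. With cells thinned to 2000 UMIs the Smo difference was -0.86 (adjusted p = 0.0065). Gli2, Gli3 and Boc did not pass the test, with log2 differences of 0.26 ± 0.33, -0.20 ± 0.19 and -0.95 ± 0.45 (edgeR adjusted p = 0.58, 0.44 and 0.10).

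Within the epithelium, the Krt17-led cluster carried more of the receptor than the enamel cluster. Ptch1 stood at 219, 466, 299 and 140 CPM in the Krt17-led cluster and at 88.8, 80.4, 118 and 66.2 CPM in the enamel cluster, without overlap. Boc had 2.40, 8.48, 9.73 and 8.30 CPM against 1.39, 0.989, 0.517 and 1.504 CPM, the last from 1, 3, 1 and 4 UMIs. Gli1 overlapped between the clusters, at 35.03, 69.96, 56.6 and 25.5 CPM and at 38.9, 37.2, 52.7 and 23.7 CPM. The cluster richer in Shh was thus also the richer in Ptch1 in each of the 4 libraries. The Boc values lay the same way in each of them, but the WT 1 values were close, at 2.40 against 1.39 CPM. There the enamel value came from 1 UMI, and 3 UMIs (4.16 CPM) would exceed the Krt17-led value.

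Blood, vessel and nerve cells held less of the response than collagen-positive mesenchyme. In endothelium-like cells, 7 of the 9 genes were lower than in mesenchyme, where 45.8% of all genes passed, 23.6% lower and 22.2% higher. Ptch1 stood at 59.5, 149, 98.7 and 86.4 CPM there (log2 fold change -2.27 ± 0.28, edgeR adjusted p = 1.5e-07), Gli1 at 6.34 ± 4.06 CPM (SD, n = 4), Hhip at 3.44 ± 3.43 CPM and Boc at 2.38 ± 1.85 CPM. These Ptch1 values overlapped those of epithelium-like cells given above, and in WT 2 the endothelium-like value was the higher. The Boc call was lost without WT 2 (adjusted p = 0.052) or Din-KO 2 (adjusted p = 0.056). In macrophage-like cells 7 of the 9 genes were also lower, beside 34.1% of all genes lower and 59% in either direction, with Ptch1 at 33.0 ± 3.88 CPM, Gli1 at 2.23 ± 0.459 CPM and Hhip at 3.54 ± 2.58 CPM. Free RNA in the suspensions was not removed, and its part in these low levels was not tested.

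B-like cells, monocyte or dendritic-like cells and neutrophil-like cells gave 8, 8 and 7 genes past the test, beside 54.6%, 54.9% and 47% of all genes. The lower calls were 7 in each of them, beside 30.5%, 29.7% and 27.3% of all genes, and in neutrophil-like cells 0 were higher, beside 19.7%. In B-like cells these held Gli3 (1.30 ± 1.70 CPM) and Smo (1.98 ± 2.35 CPM), Boc had 0 UMIs, and Sufu alone of the 9 was higher, beside 24.1% of all genes, at 24.1 ± 9.74 CPM (log2 fold change 0.92 ± 0.30, edgeR adjusted p = 0.012). The Sufu call was lost without WT 2 (adjusted p = 0.18) and without Din-KO 1 (adjusted p = 0.13). Shh passed the test in monocyte or dendritic-like cells (log2 fold change 3.92 ± 0.74, edgeR adjusted p = 9.2e-05), but 17 of its 18 UMIs came from Din-KO 1, where 16 of them lay in 1 cell that also held 37 UMIs of epithelium markers. Without Din-KO 1 the log2 fold change was 0.22 (adjusted p = 0.92).

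Glia-like and perivascular-like cells reached 20 cells in 2 libraries each, so their tests rest on few cells. For glia-like cells these were Din-KO 1 and Din-KO 2, with no WT library. For perivascular-like cells they were WT 1 and Din-KO 1. In glia-like cells 5 of the 9 genes were lower, beside 10.5% of all genes lower and 21.8% in either direction, with Ptch1 at 55.5 and 56.0 CPM and 0 UMIs of Hhip and Boc. Smo had 44.4 and 45.4 CPM there and did not pass the test (log2 difference -0.79 ± 0.30, edgeR adjusted p = 0.057). In perivascular-like cells 4 of the 9 were lower, and 0 higher, beside 6.14% of all genes lower, 5.33% higher and 11.5% in either direction, with Ptch1 at 41.1 and 105 CPM, Gli1 at 4.57 and 17.5 CPM and Gli3 at 11.7 and 27.4 CPM. Without Din-KO 1, 0 of the 9 passed in perivascular-like cells, and without Din-KO 2 the glia-like count fell from 5 to 2. Over all classes the order of means put collagen-positive mesenchyme first for Gli1, Gli2, Gli3, Ptch1, Smo, Hhip and Boc and epithelium-like cells second, except for Hhip. The ranges of these 2 overlapped for Gli1, Gli2, Gli3 and Boc.

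Inside the mesenchyme the response genes peaked in different clusters. Gli1 and Ptch1 were highest in a pulp-like cluster whose leading genes were Smoc2, Col8a1 and Sostdc1. It held 164, 25, 445 and 37 cells, of which 101, 25, 109 and 33 were collagen-positive. The values given for this cluster are from its collagen-positive cells, a small part of it in Din-KO 1. Gli1 stood at 88.8, 108, 157 and 109 CPM and Ptch1 at 994, 1022, 1197 and 1139 CPM there. Its Ptch1 range lay above that of every other cluster, the next being 632 to 829 CPM in the odontoblast-like cluster led by Smpd3, Notum and Sgms2. Its Gli1 range overlapped that of the next cluster, led by Lpl, Mfap5 and Mgp, with a mean of 64.3 CPM. Cells of the Smoc2-led cluster were shallow, with medians of 5513, 11443, 4811 and 6984 UMIs, against 8539 to 15407 UMIs in collagen-positive mesenchyme as a whole. Ptch1 was detected in a mean of 94.99% of its cells and Gli1 in 47.4%.

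Hhip had its maximum elsewhere. It stood at 476, 553, 426 and 356 CPM in the dental follicle-like cluster led by Sfrp2, Gm26771 and Pcp4, above the range of every other cluster, and a mean of 72.3% of those cells held a UMI. The follicle-like cluster led by Bmp3, Dkk2 and Nts followed with a mean of 285 ± 83.6 CPM (SD, n = 4), and the Smoc2-led cluster with 118 ± 63.7 CPM. These 2 follicle-like clusters held 53.9% and 34.2% of all Hhip UMIs of the mesenchyme. Hhip was among the leading genes of the Sfrp2-led cluster although it was left out of the clustering, and Sfrp2 itself is on the dental pulp marker list, while Pcp4 is on the follicle list.

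Other clusters were low in the response throughout. In the dental pulp-like cluster led by Cldn10, Kcnk2 and Slc20a2 the mean was 4.14 CPM for Gli1, 112 CPM for Ptch1 and 3.05 CPM for Hhip, while Smo, at 82.8 ± 24.8 CPM, and Sufu, at 19.0 ± 9.61 CPM, had their highest means there. The cluster led by Pdlim3, Postn and Ltbp1, measured in the 2 libraries of replicate 1 with at least 20 cells, had 0 and 1.04 CPM of Gli1 and 73.8 and 73.5 CPM of Ptch1. For Smo and Sufu every pair of neighbours in the order of cluster means overlapped, so those 2 genes showed no step. Gli3 had its highest means in the Vcan-led (100 ± 18.8 CPM), Smoc2-led (91.9 ± 24.2 CPM) and Tac1-led (85.0 ± 11.7 CPM) pulp-like clusters and its lowest in the Spp1-led follicle-like cluster (35.7 ± 6.41 CPM), again with every neighbour overlapping. Gli2 was highest in the Lpl-led cluster (22.1 CPM) and Boc in the Smoc2-led cluster (20.3 ± 16.1 CPM) and the Sfrp2-led cluster (16.4 ± 3.64 CPM). The Smoc2-led mean for Boc rests on WT 2 (43.8 CPM, 13 UMIs in 25 cells), and without that library it was 12.4 CPM, below the Sfrp2-led mean.

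**Figure D2:**
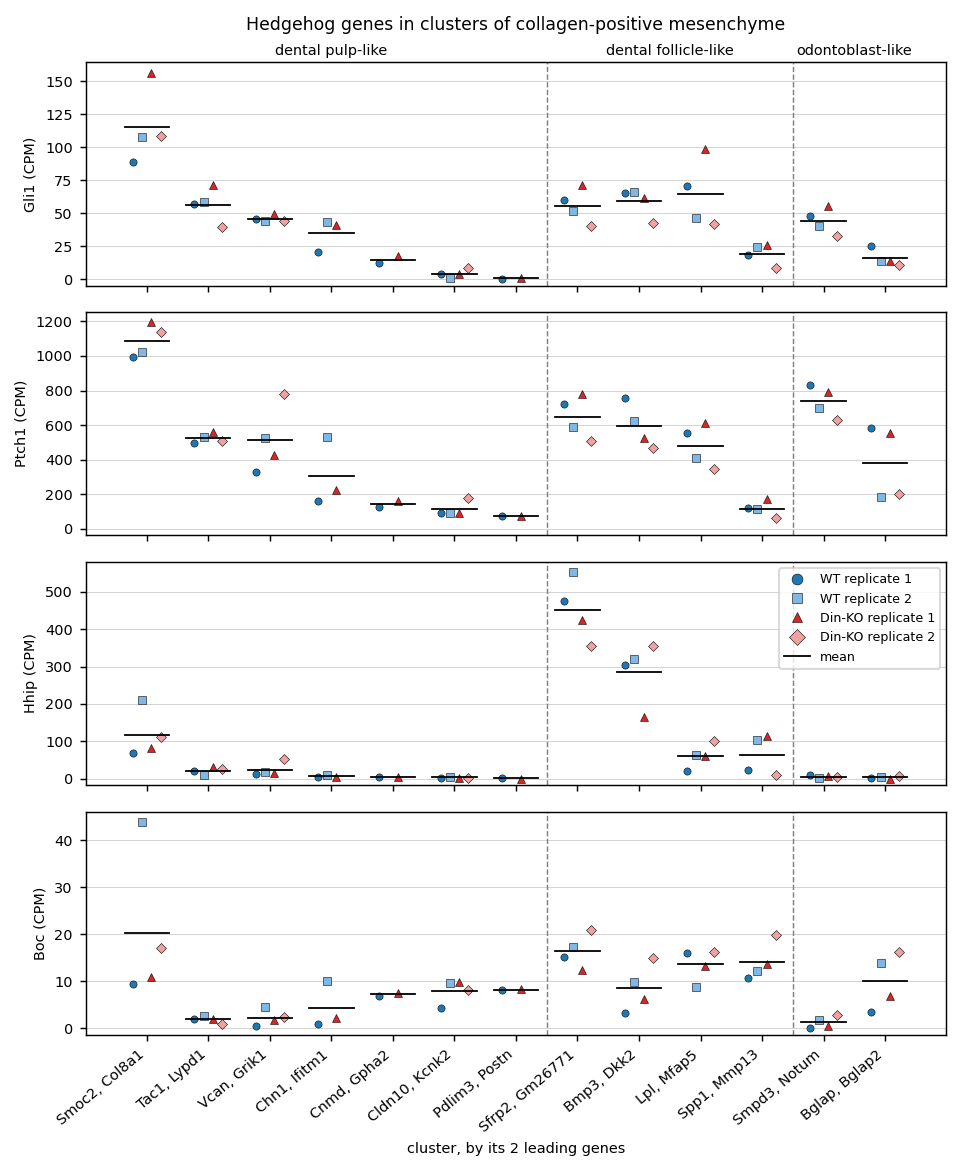
Levels of Gli1, Ptch1, Hhip and Boc in CPM (linear axis from 0) in the collagen-positive cells of the 13 mesenchyme-like clusters. Each library of at least 20 cells has a point, and a bar marks the mean over those libraries. The Smoc2-led cluster is highest in Gli1 and Ptch1, with Ptch1 means of 1088 CPM against 737 CPM in the next cluster, while Hhip is highest in the Sfrp2-led cluster at a mean of 453 CPM.

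Dental follicle-like and dental pulp-like mesenchyme differed most in Hhip. The follicle surrounds the tooth and forms its ligament, and the pulp is the soft core that gives rise to odontoblasts. Of the 8 genes tested, 5 passed, beside 36.5% of all genes. Hhip stood at 270, 369, 271 and 294 CPM in follicle-like cells and at 10.1, 25.0, 15.8 and 34.7 CPM in pulp-like cells (log2 fold change 4.01 ± 0.25, edgeR adjusted p = 3.7e-05). The groups lay far apart in all 4 libraries. The co-receptor Boc was also higher, at 9.75, 12.8, 10.4 and 18.2 CPM against 3.52, 8.58, 4.86 and 5.65 CPM (log2 fold change 1.20 ± 0.20, edgeR adjusted p = 0.003). Gli3 was lower, at 39.4, 40.9, 51.4 and 61.1 CPM against 56.8, 78.4, 75.2 and 77.6 CPM, a drop in each of the 4 libraries (log2 fold change -0.57 ± 0.10, edgeR adjusted p = 0.0036).

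Gli2 and Gli1 differed less between follicle-like and pulp-like cells. Gli2 had 13.3, 16.5, 14.4 and 12.2 CPM against 6.79, 12.6, 6.95 and 11.3 CPM (log2 fold change 0.69 ± 0.18, edgeR adjusted p = 0.022), and Gli1 had 51.9, 55.5, 64.5 and 37.7 CPM against 26.9, 43.9, 42.5 and 41.1 CPM (log2 fold change 0.50 ± 0.16, edgeR adjusted p = 0.043). Gli1 was higher in 3 of 4 libraries. Without WT 1, WT 2 or Din-KO 1, neither call held, with adjusted p of 0.14, 0.11 and 0.16 for Gli1 and 0.085, 0.050 and 0.11 for Gli2. Ptch1 had 570, 550, 607 and 429 CPM against 250, 477, 349 and 570 CPM and did not pass (log2 difference 0.47 ± 0.23, edgeR adjusted p = 0.16), but without Din-KO 2, the library where it was lower, it did (0.76, adjusted p = 0.017). Smo and Sufu had log2 differences of 0.06 ± 0.08 and -0.08 ± 0.14. Beside these values, the summed level of the 8 perivascular markers was 856 CPM (561 to 1142) in follicle-like cells and 129 CPM (107 to 166) in pulp-like cells, and its part in the differences was not tested.

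Odontoblast-like cells, named for the cells that lay down dentin, differed as a class from the pulp by the test in Hhip, 1 gene of 8. Hhip stood at 6.01, 3.30, 3.799 and 5.36 CPM in them, below every pulp value (log2 fold change -1.88 ± 0.33, edgeR adjusted p = 0.0052), beside 33.7% of all genes that passed. Ptch1 had 726, 354, 690 and 399 CPM, above the pulp of the same library in the 2 libraries of replicate 1 and below it in the 2 of replicate 2 (log2 difference 0.68 ± 0.33, edgeR adjusted p = 0.15). Gli1 differed by -0.11 ± 0.23 and Gli2 by -1.09 ± 0.46 on the log2 scale (edgeR adjusted p = 0.74 and 0.11). The fit's scaling lay 0.29 above CPM on the log2 scale for this pair too. With clusters at resolution 0.5 the Hhip call was lost (-0.92, adjusted p = 0.18), and Gli2 (-0.62, adjusted p = 0.046) and Sufu (-0.44, adjusted p = 0.045) passed instead. The odontoblast-like class then held a cluster of 815 cells led by Smpd3 and Tac1, and the Tac1-led cluster of resolution 1 was pulp-like. The 2 resolutions thus compared other cells. With cells thinned to 2000 UMIs Hhip had too few UMIs to be tested, and 0 of the 4 genes tested passed. At resolution 1 the class joined 2 clusters, led by Smpd3 (65, 48, 117 and 42 cells) and by Bglap (36, 85, 45 and 62 cells). Gli1 was detected in 46.2%, 43.8%, 53.0% and 50% of the first and 27.8%, 24.7%, 22.2% and 22.6% of the second. Ptch1 was detected in 96.9%, 89.6%, 92.3% and 95.2% against 91.7%, 72.9%, 75.6% and 53.2%. Both were lower in the Bglap-led cluster in every library, although its median depth was higher. The part of this make-up in the replicate split of Ptch1 was not tested.

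To follow gradients without cluster borders, cells were ordered by marker scores that hold none of the 9 genes. They were cut into 5 bins of equal cell number over the pooled libraries. Within a library the bins were uneven. The first and last bins of the odontoblast axis held 567 and 219 cells in WT 1 and 20 and 174 cells in Din-KO 2. The follicle axis ordered all collagen-positive mesenchyme, odontoblast-like cells included, from most pulp-like to most follicle-like. From its first to its last bin 4 of the 8 genes tested rose and 0 fell, beside 21.6% of all genes that rose and 18.6% that fell. Hhip went from 8.65, 13.2, 14.5 and 34.4 CPM to 260, 359, 280 and 279 CPM (log2 fold change 4.55 ± 0.21, edgeR adjusted p = 3.7e-08), and its means over the 5 bins were 17.7, 12.8, 29.1, 48.0 and 295 CPM. Hhip was thus low over most of the axis and stepped up in the last bin. Gli1 had bin means of 30.3, 27.2, 47.1, 39.7 and 47.5 CPM and Ptch1 of 339, 313, 516, 499 and 466 CPM, with the rise at the third bin. The part of odontoblast-like cells in the middle bins was not tested.

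Gli1 on the follicle axis went from 17.8, 16.4, 28.6 and 58.5 CPM to 45.7, 54.7, 54.9 and 34.6 CPM (log2 fold change 1.11 ± 0.24, edgeR adjusted p = 0.0035). It rose in 3 libraries and was lower in the last bin of Din-KO 2, where the first bin held 27 cells. Ptch1 went from 188, 325, 269 and 574 CPM to 498, 544, 452 and 370 CPM (0.72 ± 0.24, edgeR adjusted p = 0.03), with the same exception. Boc went from 3.26, 9.86, 5.65 and 10.3 CPM to 7.65, 12.7, 9.38 and 18.9 CPM (0.96 ± 0.25, edgeR adjusted p = 0.0089), higher in all 4 libraries. The Ptch1 call was lost without WT 1, WT 2 or Din-KO 1 (adjusted p = 0.16, 0.097 and 0.10), and the Boc call without WT 1 (adjusted p = 0.093), when 2 of the 8 genes passed.

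On the odontoblast axis, which orders pulp-like and odontoblast-like cells, 3 of the 8 genes fell and 0 rose, beside 19.9% of all genes that fell and 20.8% that rose. Boc went from 6.10, 27.3, 8.58 and 20.1 CPM in the first bin to 1.77, 8.17, 2.01 and 7.73 CPM in the last (log2 fold change -1.49 ± 0.29, edgeR adjusted p = 0.0029), lower in all 4 libraries. Gli2 went from 6.31, 11.4, 8.58 and 25.1 CPM to 2.52, 6.13, 4.69 and 6.14 CPM (-0.93 ± 0.30, edgeR adjusted p = 0.035), also lower in all 4. Hhip went from 9.36, 116, 20.6 and 90.3 CPM to 10.6, 6.13, 9.55 and 10.0 CPM (-1.70 ± 0.59, edgeR adjusted p = 0.044), and in WT 1 it did not fall.

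The readout genes gave no common direction on the odontoblast axis. Gli1 had 20.2, 61.5, 43.3 and 95.3 CPM in the first bin and 46.4, 33.8, 51.8 and 24.3 CPM in the last (log2 difference 0.26 ± 0.37, edgeR adjusted p = 0.62), rising in both libraries of replicate 1 and not in those of replicate 2. Ptch1 split the same way (0.54 ± 0.31, edgeR adjusted p = 0.19), and it passed without WT 2 (0.85, adjusted p = 0.046) or with cells thinned to 2000 UMIs (0.68, adjusted p = 0.014). The first bins of WT 2 and Din-KO 2 held 44 and 20 cells. The Gli2 call was lost without WT 1, Din-KO 1 or Din-KO 2 (adjusted p = 0.16, 0.11 and 0.079) and the Hhip call without WT 2 or Din-KO 2 (adjusted p = 0.17 and 0.12), and 1 of the 8 genes passed without Din-KO 2. Without the library block the Boc call was lost as well (-0.95, edgeR adjusted p = 0.29).

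**Figure D3:**
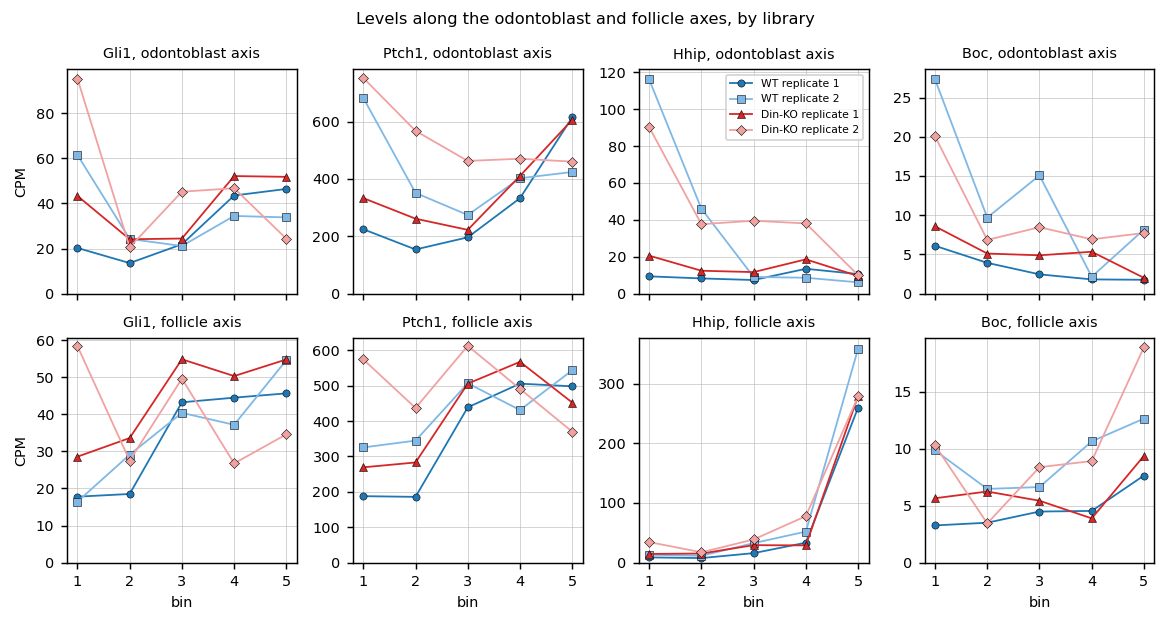
Levels of Gli1, Ptch1, Hhip and Boc in CPM over 5 bins of the odontoblast axis and of the follicle axis, with a line for each library. Hhip rises in the last follicle bin in all 4 libraries, to 260 to 359 CPM, and Boc falls along the odontoblast axis from a mean of 15.5 to 4.92 CPM, while Gli1 and Ptch1 run apart between libraries in the first bins.

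Gli1 and Ptch1 stood higher in dividing mesenchymal cells than in cells without division markers, with calls that did not hold in every setting. Cells with at least 3 UMIs of the cycling markers numbered 222, 107, 249 and 90, and cells with none 1814, 588, 1834 and 411. Of the 8 genes tested, 4 passed, beside 43.1% of all genes. Gli1 stood at 52.3, 50.8, 62.5 and 34.8 CPM in cycling cells and 26.6, 42.7, 40.5 and 30.0 CPM in the others, higher in each of the 4 libraries (log2 fold change 0.58 ± 0.14, edgeR adjusted p = 0.011). Ptch1 had 578, 517, 561 and 470 CPM against 278, 473, 398 and 418 CPM (0.50 ± 0.15, edgeR adjusted p = 0.027), again higher in all 4.

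Hhip and Boc also differed with division. Hhip had 83.2, 175, 94.0 and 193 CPM in cycling cells against 50.7, 192, 61.7 and 141 CPM (log2 fold change 0.44 ± 0.13, edgeR adjusted p = 0.028), higher in 3 of 4 libraries, and Boc had 2.73, 6.61, 3.74 and 10.9 CPM against 5.54, 12.8, 6.76 and 13.2 CPM (-0.70 ± 0.18, edgeR adjusted p = 0.015), lower in all 4. Cycling cells were deeper, with medians of 15794 to 29065 UMIs against 8033 to 13369. The 2 sets were not matched by cluster. Scores of cycling markers were scaled from 0 to 1 over clusters at resolution 0.5. They stood at 0.749 in a cluster of 815 cells led by Smpd3 and Tac1, and at 0.689 in the Bmp3-led cluster. Smpd3 and Tac1 lead separate clusters at resolution 1, and the other clusters named here can also differ from those named alike above. The scores were 0.0693 to 0.0982 in the Cldn10-led, Vcan-led, Smoc2-led and Cnmd-led clusters, and other mesenchyme-like clusters lay between. The part of this make-up in the differences of the 4 genes was not tested. Without the library block 0 of the 4 calls held (edgeR adjusted p = 0.10, 0.071, 0.64 and 0.34 for Gli1, Ptch1, Hhip and Boc). With every cell thinned to 2000 UMIs 0 held too, and the fold changes were 0.62 for Gli1, 0.10 for Ptch1 and 0.17 for Hhip (adjusted p = 0.17, 0.70 and 0.69). The cycling markers were counted again after thinning, so both sets then held other cells and depth was not the only change. Without Din-KO 1, 1 of the 8 genes passed. Hhip was also lost without WT 1 or Din-KO 2 (adjusted p = 0.092 and 0.087), and Boc without WT 2 (adjusted p = 0.057).

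The other genes of the pathway, a list of 32 with ligands, carriers, co-receptors, cilium proteins and kinases, moved in both directions in most comparisons. In epithelium-like cells 7 of the 29 tested were higher and 9 lower than in mesenchyme, beside 16.6% of all genes higher and 22.8% lower. The cilium motor Kif7 (21.1 ± 3.12 CPM against 10.4 ± 1.73, SD, n = 4) was higher, and the co-receptor Gas1 was lower (10.8 ± 9.64 against 135 ± 49.2). In follicle-like against pulp-like cells 7 of 29 were higher and 2 lower, beside 19.8% and 16.8% of all genes. The carriers split there, Scube2 standing at 15.7 ± 6.84 CPM in follicle-like and 0.241 ± 0.112 CPM in pulp-like cells, and Scube1 at 6.83 ± 3.08 and 159 ± 60.2 CPM. The co-receptor Cdon, a relative of Boc, was higher in follicle-like cells like Boc, at 11.8 ± 3.81 CPM against 1.10 ± 0.715 (log2 fold change 3.68 ± 0.29, edgeR adjusted p = 0.0001).

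Along the odontoblast axis 4 of the 26 tested rose and 4 fell, beside 20.8% and 19.9% of all genes, with Gas1 going from 134 ± 41.0 to 46.2 ± 40.4 CPM. Along the follicle axis 7 of 29 rose and 4 fell, beside 21.6% and 18.6%. In cycling cells 4 of 29 were higher and 3 lower, beside 20.9% and 22.1%, and Gas1, named for its rise in growth arrest, was lower at 70.6 ± 41.3 CPM against 161 ± 59.9. In odontoblast-like cells 3 of the 26 tested were higher than in pulp and 3 lower, beside 16.9% of all genes in each direction. In endothelium-like, macrophage-like, B-like, monocyte or dendritic-like and neutrophil-like cells 4, 2, 2, 1 and 0 of the 29 were higher than in mesenchyme, beside 22.2%, 24.9%, 24.1%, 25.2% and 19.7% of all genes. There 14, 19, 18, 19 and 12 were lower, beside 23.6%, 34.1%, 30.5%, 29.7% and 27.3%. In glia-like and perivascular-like cells 5 and 0 were higher, beside 11.3% and 5.33%, and 4 and 3 lower, beside 10.5% and 6.14%.

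A second list held 15 genes known to follow Hedgehog signaling in some tissues, most of which also answer to other signals. In epithelium-like cells 9 of the 12 tested were lower than in mesenchyme and 0 higher, beside 22.8% and 16.6% of all genes. Among those lower were the transcription factor genes Foxf1 (1.90 ± 1.27 CPM against 85.2 ± 16.5) and Snai1 (1.85 ± 1.11 against 73.5 ± 11.7). The median log2 fold change of the list was -3.53, against -0.08 over all genes tested. In follicle-like against pulp-like cells 5 of 12 were higher and 5 lower, beside 19.8% and 16.8% of all genes, with Foxf2 at 163 ± 62.9 CPM against 34.0 ± 19.9 and Foxd1 at 9.41 ± 2.39 against 41.3 ± 22.8. The list had no common direction there.

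In cycling cells 6 of the 12 were higher and 1 lower, beside 20.9% and 22.1% of all genes, with Mycn at 55.2 ± 22.4 CPM against 16.3 ± 7.81 and Ccnd1, a cyclin gene that drives the cell cycle, at 165 ± 17.6 against 99.3 ± 37.6. On the odontoblast axis 4 of the 11 tested rose and 2 fell, beside 20.8% and 19.9% of all genes, and on the follicle axis 5 of 12 rose and 2 fell, beside 21.6% and 18.6%. In odontoblast-like cells 2 of the 11 tested were higher than in pulp, among them Bmp4 at 319 ± 39.0 CPM against 134 ± 34.3, and 1 was lower, beside 16.9% of all genes in each direction. In endothelium-like and perivascular-like cells 3 and 2 of the 12 were higher than in mesenchyme, beside 22.2% and 5.33% of all genes, with Foxc1 higher in both, and 7 and 4 were lower, beside 23.6% and 6.14%. In the other classes 0 of the 12 were higher and 7 to 11 lower, beside 10.5% to 34.1% of all genes lower.

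No difference between Din-KO and WT passed the edgeR test for any of the 9 genes that could be tested in a cell class. In collagen-positive mesenchyme 0 of the 8 genes tested were called, beside 0% of all 15128 genes by edgeR, with 149 genes (0.985%) at an unadjusted p under 0.05 and 19 called by DESeq2. Gli3 was the 1 gene of the 8 whose groups did not overlap, at 53.1 and 56.1 CPM in WT and 69.3 and 66.7 CPM in Din-KO (log2 difference 0.29 ± 0.17 SE, edgeR adjusted p = 1.0), beside 18.7% of all genes of at least 10 UMIs that did not overlap. Gli1, at 32.5 and 45.1 CPM in WT and 46.5 and 34.1 CPM in Din-KO, differed by 0.03 ± 0.27, and Ptch1, at 347 and 488 CPM in WT and 447 and 452 CPM in Din-KO, by 0.08 ± 0.24. Hhip, Gli2, Smo, Sufu and Boc differed by -0.21 ± 0.71, -0.15 ± 0.36, -0.03 ± 0.25, 0.04 ± 0.31 and 0.26 ± 0.62. Without WT 2 the Hhip difference turned to 0.90, and without Din-KO 2 the Boc difference turned to -0.44. Hhip and Boc had the largest standard errors of the 8. Mesenchyme-like cells with fewer than 10 collagen UMIs were left out of these fits. With cells thinned to 2000 UMIs, Gli1 was detected in 5.75%, 7.96%, 10.3% and 5.94% of all mesenchyme-like cells. The shares of the collagen-positive ones were 5.31%, 7.98%, 8.48% and 6.05%. Of the Smoc2-led cluster, 101 of 164, 25 of 25, 109 of 445 and 33 of 37 cells were collagen-positive. The genotypes were not compared within the cells left out. Within the cells of females 0 of the 8 were called as well, with Gli3 at 0.37 ± 0.21, Gli1 at -0.14 ± 0.25, Ptch1 at 0.02 ± 0.26, Hhip at -0.83 ± 0.70 and Boc at 0.54 ± 0.52, and the adjusted p was 1.0 for each.

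Separate fits of the mesenchymal parts also gave 0 calls among the 9 genes. Din-KO over WT for Gli1 was 0.28 ± 0.26 in pulp-like cells, -0.12 ± 0.31 in follicle-like cells, -0.10 ± 0.39 in odontoblast-like cells and 0.46 ± 0.33 in the Smoc2-led cluster. The corresponding values for Ptch1 were 0.36 ± 0.36, -0.16 ± 0.26, -0.05 ± 0.43 and 0.21 ± 0.25. Gli3 stayed above 0 in each of them, between 0.13 and 0.43, and no adjusted p was under 0.05.

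In the epithelium, where nearly all Shh RNA of the kept cells lay, 0 of the 8 genes tested were called between genotypes. Beside this, 0% of all 11493 genes were called by edgeR, with 144 at an unadjusted p under 0.05 (1.25%) and 6 called by DESeq2. Shh was 653 and 106 CPM in WT and 290 and 191 CPM in Din-KO (log2 difference -0.63 ± 0.71 SE, edgeR adjusted p = 1.0), the Din-KO values lying inside the WT range, and without WT 1 the difference turned to 0.74 (adjusted p = 0.54). Within the Krt17-led cluster both WT values were above both Din-KO values (log2 difference -0.58 ± 0.27), as was so for 12.3% of genes of at least 10 UMIs there. Sufu had 3.92 and 5.14 CPM in WT against 10.0 and 9.85 CPM in Din-KO (0.93 ± 0.50), Boc 2.14 and 1.997 against 5.48 and 4.25 CPM (1.06 ± 0.58), Gli3 41.4 and 28.5 against 56.2 and 52.6 CPM (0.52 ± 0.29), and Gli2 4.64 and 10.3 against 11.9 and 10.97 CPM (0.36 ± 0.62). Each had an edgeR adjusted p of 1.0. Hhip, with 2 and 1 UMIs in WT and 7 and 30 in Din-KO, was not tested. Both Din-KO values lay above both WT values for these 5 of the 9 genes, beside 19% of genes of at least 10 UMIs there, and 0 of the 9 lay below, beside 3.58%. In endothelium-like, macrophage-like and B-like cells 0 of the 5, 4 and 2 genes tested were called, beside 0.00933%, 0.0731% and 0% of all genes. At an unadjusted p under 0.05 these classes had 2.58%, 2.64% and 1.78% of all genes, and DESeq2 called 38, 46 and 3 genes. With 1 library left out, edgeR called 50 to 158, 0 to 108 and 2 to 72 of all genes in these classes. In monocyte or dendritic-like cells none of the 9 had enough UMIs to be tested, and 3.27% of all genes had an unadjusted p under 0.05.

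**Figure D4:**
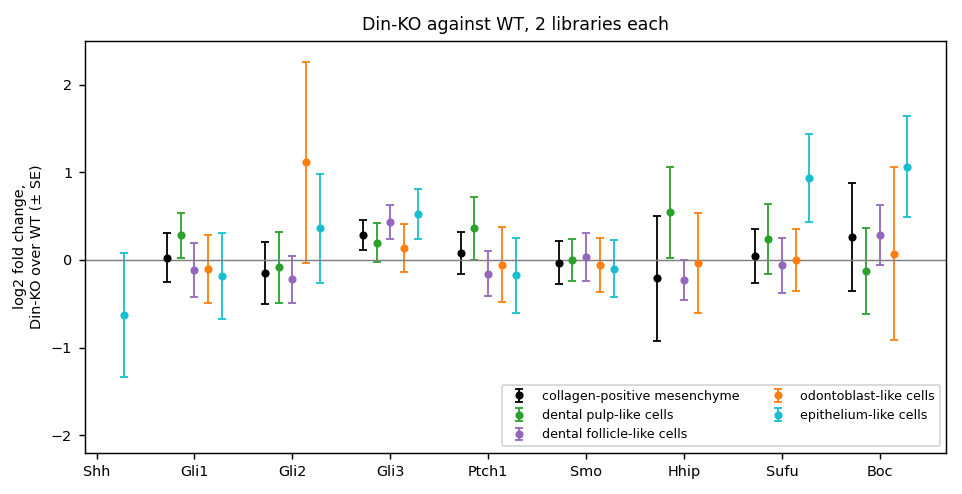
Log2 fold change of Din-KO over WT for each of the 9 genes that could be tested, with bars of 1 SE, in collagen-positive mesenchyme, its pulp-like, follicle-like and odontoblast-like parts, and epithelium-like cells. The values lie on both sides of 0, with Gli3 above 0 in all 5 sets, and none passed the test.

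The gradients did not pass a test of difference between genotypes. On the odontoblast axis 0 of 8 genes were called, beside 0% of all 12921 genes (112 at an unadjusted p under 0.05, 0.867%, and 0 by DESeq2). On the follicle axis 0 of 8 were called, beside 0.03% of all genes, and the Din-KO rise minus the WT rise on the log2 scale was -0.98 ± 0.43 for Gli1, -0.98 ± 0.36 for Ptch1 and -0.90 ± 0.39 for Hhip (edgeR adjusted p = 1.0 for each). Without Din-KO 1, Gli1 (-2.12, adjusted p = 0.0073) and Ptch1 (-1.67, adjusted p = 0.00017) passed, and the Din-KO group was then the single library Din-KO 2, whose first bin held 27 cells.

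To place the genes among all others, likeness was taken as Pearson's r of log2(CPM + 1) over 32 class and library sums from 10 classes, among 11789 genes with at least 20 CPM in some sum, as a description. The 5 genes most like Shh were 4833423E24Rik, Isl1, Dsp, Ap1m2 and Dsc3 (r = 0.966 to 0.943), of which Dsp and Dsc3 encode proteins of epithelial cell junctions. Those most like Gli1 were Dlx3, Fbln1, Msi1, Dlx5 and Irx5 (r = 0.898 to 0.872), and among those most like Hhip were Tmem132c, Bdnf and Aldh1a2 (r = 0.884, 0.849 and 0.848), of which Aldh1a2 is on the follicle marker list. The sums share libraries and their depth.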

How the data were processed

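Dissociated proximal incisor tissue was measured with 10x 3′ v3.1 single-cell RNA-seq. The authors made a matrix of UMI counts for each library with CellRanger 6.0.2 on mm10, per the file headers and labels. A barcode was kept as a cell with 1000 or more genes, no more than 10% of UMIs mitochondrial and no more than 3% from haemoglobin genes. No doublet caller was run, and the 5% of cells with the most UMIs were left out as an alternative. Free RNA was not removed. Clustering used Seurat 5.3.0 (CCA integration of 2000 variable genes without pathway genes, 30 components, resolution 1). Clusters were named from marker lists by a score rule set with the data in hand. The 9 genes and the lists were chosen with earlier results of these data known.

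UMIs were summed per library and cell set. Cell classes, and sets compared between genotypes, needed at least 20 cells in a library. Comparisons between parts of the mesenchyme had no such minimum, and with 10 bins the first odontoblast bin of Din-KO 2 held 11 cells. The sums were tested with edgeR 4.0.16 in R 4.3.3 (quasi-likelihood test, TMM scaling, filterByExpr, Benjamini-Hochberg adjustment over all genes, threshold 0.05). Every adjusted p is from this fit unless another tool is named. Libraries were a block in comparisons of cell sets and not between genotypes. CPM is UMIs of a gene per 1000000 UMIs of the set. The rule was to name the 9 genes in every comparison, and other listed genes by the 6 largest folds past the threshold. Not all of the 9 are named for the axes, the odontoblast-like cells and the cycling cells. Some of the fits were also run on simulated counts, with the outcome not reported here, so no power is given for genes that were not called. Alternatives were DESeq2 1.42.0, its size factors, genes of low counts kept in, leaving out 1 library at a time, cells of at least 500 genes, thinning to 2000 UMIs, resolution 0.5, other numbers of bins and fits with or without blocks. Axis scores and cycling markers were taken again from the thinned counts, so the thinned bins and cycling sets held other cells. Fits of single clusters or subsets were added after seeing the data. Some genes that these rules would name are not reported here.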

Additional observations from a re-analysis of the deposited data

Results flagged for a closer look

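Gli2 in epithelium-like cells against collagen-positive mesenchyme stood apart between genotypes. The log2 ratio of CPM, with 1 added, was -0.60 and -0.29 in the WT libraries (mean -0.44) and 0.51 and 0.04 in the Din-KO libraries (mean 0.28), a difference of 0.72. Both WT values were below 0 and both Din-KO values above it, which drew attention to the gene. These ratios are on the CPM scale. For this pair of cell sets the fit's scaling lay 0.29 above CPM on the log2 scale, about the size of the WT 2 value, so the side of 0 depends on the scaling. The difference between genotypes was not tested.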

How the results depend on the processing

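Of 1813 values of the 9 genes under alternatives, 1670 were counted as the same, 83 lost a call, 22 gained one, 1 reversed and 37 uncalled values moved. A value counted as the same kept its direction and its side of the threshold, or was uncalled and changed sign by less than 1 SE of the main fit. An uncalled value that changed sign by 1 SE or more was counted as moved. The reversed value was Gli1 in perivascular-like cells, at 0.076 (adjusted p = 0.90) against -2.27, with cells of at least 500 genes, and the cause was not tested. The counts of genes called among the 9 changed as follows. In perivascular-like cells 4 became 2 with DESeq2, 2 with cells of at least 500 genes and 2 when thinned, and 0 to 4 with a library left out. In glia-like cells 5 became 2 to 6 and in neutrophil-like cells 7 became 4 to 7 with a library left out. For follicle-like against pulp-like cells 5 became 3 with cells of at least 500 genes, 3 when thinned and 3 without the library block, and 3 to 6 with a library left out. For odontoblast-like against pulp-like cells 1 became 0 when thinned and 2 at resolution 0.5, where the odontoblast-like class held other cells. On the odontoblast axis 3 became 1 when thinned, 1 without the library block and 1 with 3 bins, and 1 to 3 with a library left out. On the follicle axis 4 became 2 to 5, and in the follicle axis by genotype 0 became 0 to 2, with a library left out. For cycling cells 4 became 0 when thinned, 0 without the library block and 1 to 3 with a library left out. The causes were not tested.

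The WT and Din-KO libraries share replicate numbers 1 and 2, and no label ties a number to a batch. The numbers come from the sample titles, while the library names in the labels follow another scheme (WT-2 and KO-2 for replicate 1, CD1-WT and CD2-KO for replicate 2). Deviations of same-numbered libraries correlated at 0.84 over 13601 genes in the mesenchyme, and at 0.49, 0.55 and 0.57 in epithelium-like, endothelium-like and macrophage-like cells. With the replicate block 0 of the 9 genes were called between genotypes, as without it. Over all genes the block moved the mesenchyme count from 0 to 138, B-like from 0 to 65, endothelium-like from 1 to 148, macrophage-like from 8 to 117 and monocyte or dendritic-like from 0 to 72.

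Counts over all genes moved beyond 1.5 times in other settings as well. Between genotypes DESeq2 called 19 genes in mesenchyme, 3 in B-like, 38 in endothelium-like, 6 in epithelium-like, 46 in macrophage-like and 8 in monocyte or dendritic-like cells, and with no filter on low counts 8, 34, 190, 154 and 82 were called in those classes other than epithelium. Thinning lowered the class counts to between 942 and 5123 genes, follicle-like against pulp-like cells from 4682 to 2011, odontoblast-like from 3906 to 1219, the odontoblast axis from 4835 to 1584, the follicle axis from 4974 to 1848 and cycling cells from 5494 to 1654 (2359 without the library block). The genes called on the follicle axis by genotype ranged from 0 to 139, and on the odontoblast axis from 0 to 28. With 1 library left out, edgeR called between genotypes 0 to 10 genes in mesenchyme, 2 to 72 in B-like, 50 to 158 in endothelium-like, 0 to 108 in macrophage-like and 2 to 35 in monocyte or dendritic-like cells. Thinned to 2000 UMIs, 110 of the values of the 9 genes could still be fitted, of which 7 lost a call and 2 gained one.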
